A study of Mus musculus with 13 samples.

Results

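RNA-seq counts were compared between intestinal stem cells (ISCs) sorted from the duodenum of Apc-null mice and ISCs sorted from the ileum of mice with intact Apc. The libraries were chosen by their titles, and 5 of the 13 libraries of the series entered, 3 duodenal and 2 ileal. The duodenal libraries came from adult mice of the genotype Lgr5eGFP-CreERT2;Apcfl/fl;Rosa26tdTomato at 14 days after induction. In these mice a tamoxifen-inducible Cre recombinase is made in cells that use the Lgr5 promoter, so floxed Apc is cut in crypt-base stem cells and their progeny (ISC-Cre). The ileal libraries, labelled WT, came from adult Apcfl/fl;Lgr5DTR-GFP;Rosa26tdTomato mice at 21 days, whose genotype names no Cre. Both groups thus carried floxed Apc and the tdTomato reporter, both received 2 doses of 1 mg tamoxifen, and both were isolated by flow cytometry. The label of the WT group does not mean a mouse without engineered alleles. Replicates were separate samples, but nothing states that they came from separate animals, and a p-value here reflects only how these samples vary.

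Apc status was not the only thing that differed. Gut region, days after induction, the Lgr5 reporter allele and the enzyme named for dissociating the tissue (TrypLE for samples called Lgr5_ApcKO, collagenase for the others) all followed the group. The contributions of these to any difference below cannot be told apart. In bulk RNA, fewer cells of a type and less RNA per cell cannot be told apart either. Apc is a scaffold of the complex that marks beta-catenin for destruction. When it is lost, beta-catenin stays in the nucleus with TCF/LEF factors and keeps Wnt targets on, the first step of most adenomas of the gut. Wnt also maintains Lgr5+ stem cells at the crypt base, from which absorptive enterocytes and the secretory goblet, Paneth, enteroendocrine and tuft cells arise. Duodenum and ileum differ in what they absorb, with iron and calcium uptake in the former and bile acid and cobalamin uptake in the latter, and in their Hox genes.

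Gene counts totalled 24799289, 27336750 and 21580486 in duodenal replicates 1, 2 and 3, and 15573041 and 18609373 in WT replicates 1 and 2. Strand-specific reads made up the duodenal libraries (second-strand share 98.5% to 98.9%) and not the WT ones (49.6% and 49.7%), although the labels name the same non-directional kit for all. The protocol text names the duodenum alone, so the ileal origin rests on the sample labels. Multimapping reads were 12.9% to 17.0% in duodenal against 5.20% and 5.76% in WT libraries. Genes with over 50% of their 31-base words shared with another gene were called lower in 23.6% of cases, against 12.4% of genes with no shared word. Such genes are said to be uncertain below where the share is above 20%. Duodenal replicate 3 stood apart, with a correlation of 0.958 and 0.954 to the others, against 0.988 between them and 0.980 within WT. The ribosomal RNA precursor Rn45s was at 52630 CPM (gene counts scaled to a fixed library total, here unadjusted), against 2712 to 5734 in the other 4 libraries. In duodenal replicate 1 alone, Xist was near 0 and Y-linked genes were above a trace.

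Among 14289 genes tested, 2321 (16.2%) were higher and 1785 (12.5%) lower in duodenal Apc-null than in ileal WT ISCs, by edgeR's quasi-likelihood test with an adjusted p under 0.05. The median log2 fold change of all tested genes was 0.11. Counts of called list members below are to be read beside these shares, and several lie near them. All 3 duodenal values lay above both WT values for 34.1% of tested genes and below them for 28.1%. Wnt feedback genes, fetal and regenerative genes and a set of genes listed as stromal were the groups with the largest shares called higher. Goblet, enteroendocrine and major histocompatibility complex (MHC) class II genes were those with the largest shares called lower. Without duodenal replicate 2, 20 of 24 goblet, 22 of 33 enteroendocrine and 6 of 8 MHC class II genes were called lower. In that fit 18 of 29 fetal and regenerative genes were called higher. Left-out libraries also moved the totals over all genes. Without WT replicate 1 the counts were 1461 higher and 952 lower, and without WT replicate 2 they were 1003 and 773. Without duodenal replicate 1 they were 1332 and 1045, and without duodenal replicate 3 they were 3341 and 2989. With 3 libraries against 2, an exact two-sided permutation test of a single gene cannot give a p below 0.2, so calls rest on the spread shared across genes. In fits with 1 WT library, that library is assumed to vary like the duodenal ones. Genes were filtered anew in each such fit, so the number of tested list members can differ from that given.

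**Figure D1:**
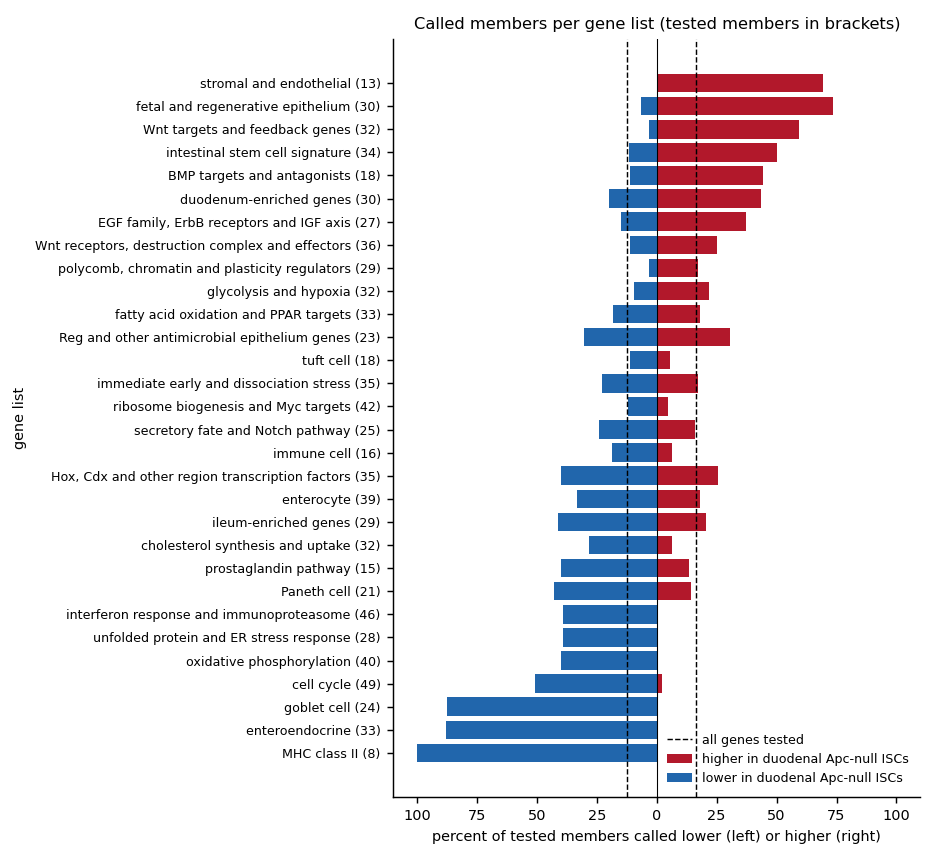
Bars give the percent of tested members of each gene list that were called higher (right) or lower (left) in duodenal Apc-null ISCs, with the number tested in brackets, and dashed lines mark 16.2% and 12.5% of all tested genes. All 8 tested MHC class II genes were called lower, and 22 of 30 fetal and regenerative genes were called higher.

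The targeted gene was read in every library. Apc was at 268, 186 and 496 CPM (here and below scaled for library composition) in the duodenal libraries and at 121 and 137 CPM in the WT libraries. Levels were thus higher in all duodenal libraries, most in replicate 3, but the difference missed the threshold (log2 fold change 1.29 ± 0.41 SE, adjusted p = 0.0549 by edgeR). It passed without duodenal replicate 2 (0.0263) or duodenal replicate 3 (0.0145). Reads from exons outside the floxed stretch are included in these totals, so the level is no check of the deletion. Ctnnb1, which encodes beta-catenin, was at 1672, 1724 and 1736 CPM against 1086 and 1066 CPM. It was called higher (0.67 ± 0.19, adjusted p = 0.0409), and the call was lost without WT replicate 1 (0.236), WT replicate 2 (0.314), duodenal replicate 1 (0.0899) or duodenal replicate 2 (0.0881).

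Wnt targets and feedback genes were mostly higher in the duodenal Apc-null cells. Of 32 tested, 19 were higher and 1 was lower, with a median log2 fold change of 1.63, and 12 of 33 tested were called higher without WT replicate 2. Inhibitors of the pathway and 2 Dickkopf genes, whose action was not tested here, were among the genes called higher. Nkd1, which dampens signalling at Dishevelled, was at 1157, 1089 and 971 CPM against 10.1 and 7.81 CPM (6.90 ± 0.30, adjusted p = 0.000157). Notum, a secreted enzyme that removes the lipid of Wnt proteins, was at 751, 847 and 512 CPM against 0.925 and 1.12 CPM (9.41 ± 0.42, adjusted p = 0.000157), and is uncertain for its shared words. In both genes the lowest duodenal library was far above the highest WT library. Wif1, a secreted Wnt-binding inhibitor, was at 93.9, 96.5 and 61.6 CPM against 0.463 and 0 CPM. Dkk3 of the Dickkopf family was at 181, 201 and 310.5 CPM against 1.65 and 0.335 CPM (7.89 ± 0.68, adjusted p = 0.000552). Apcdd1, a membrane inhibitor, was at 72.2, 48.2 and 76.7 CPM against 6.67 and 4.86 CPM (3.51 ± 0.33, adjusted p = 0.000715). For the Dickkopf gene Dkk2, with 5.07, 3.81 and 1.03 CPM and no count in either WT library, the duodenal level was at least 39.2-fold higher, measured against 3 counts over the WT group.

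Feedback genes that normal stem cells also express had smaller gaps. Axin2, a destruction complex scaffold that is itself a Wnt target, was at 864, 764 and 803 CPM against 352 and 314 CPM. The duodenal libraries did not overlap the WT ones and the gene was called higher (1.28 ± 0.20, adjusted p = 0.00486), although not without WT replicate 1 (0.0528) or WT replicate 2 (0.0931). Rnf43, a ligase that removes Frizzled receptors from the surface, was at 511, 514 and 364 CPM against 152 and 123 CPM (1.75 ± 0.25, adjusted p = 0.0035). Znrf3, its relative, was at 149, 114 and 269 CPM against 39.8 and 33.5 CPM (2.27 ± 0.40, adjusted p = 0.00682). Both calls were lost without WT replicate 2 (adjusted p = 0.0561 and 0.0695).

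Transcription factors of the list included Lef1, Tcf7, Sp5 and Prox1 among its called members. Lef1, a partner of beta-catenin on DNA, was at 45.5, 38.8 and 105.9 CPM in the duodenal libraries and at 0.529 and 0 CPM in WT. Tcf7, another such partner, was at 103, 89.2 and 160 CPM against 17.6 and 12.2 CPM (2.98 ± 0.35, adjusted p = 0.0015). Sp5, a zinc finger factor induced by Wnt, was at 133, 132 and 191 CPM against 15.4 and 22.5 CPM (3.00 ± 0.30, adjusted p = 0.000807). All 3 factors were higher in each duodenal library than in either WT library. Prox1, a homeobox factor of intestinal adenomas, was at 655, 439 and 742 CPM against 12.1 and 10.6 CPM (5.75 ± 0.35, adjusted p = 0.000251). Wnt6, a ligand gene, was at 93.0, 78.2 and 33.0 CPM against 0.859 and 0.447 CPM (6.71 ± 0.65, adjusted p = 0.000773). Tnfrsf19, a receptor found on stem cells, was at 403, 381 and 258 CPM against 29.9 and 19.4 CPM (3.82 ± 0.34, adjusted p = 0.000614).

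Several familiar targets did not pass the test with all 5 libraries. Myc, the growth-promoting transcription factor, was at 148, 159 and 103 CPM against 151 and 118 CPM, and the groups overlapped (0.03 ± 0.25, adjusted p = 0.944). The receptor tyrosine kinase Ephb2, which positions cells along the crypt, was at 163, 167 and 164 CPM against 199 and 175 CPM (-0.19 ± 0.18, adjusted p = 0.47). Sox9, a crypt transcription factor, was at 207, 220 and 430 CPM against 141 and 137 CPM and missed the threshold (1.03 ± 0.35, adjusted p = 0.0666). Sox9 was called higher without duodenal replicate 3 (0.59, adjusted p = 0.00802), the library with its highest value, and with DESeq2 (0.0275). Only Ccnd1, cyclin D1, was called lower in the list, at 149, 199 and 135 CPM against 355 and 463 CPM (-1.35 ± 0.24, adjusted p = 0.00813). That gene is uncertain for its shared words, and its call was lost without WT replicate 2 (0.0794). Among 36 tested receptors, destruction complex members and effectors, 9 were higher and 4 lower, falling to 3 and 2 without WT replicate 1 and to 4 and 2 without duodenal replicate 1, while 2 were higher without WT replicate 2. With all 5 libraries the share called lower was near the 12.5% of all tested genes. Fzd5, a Frizzled receptor, was at 47.3, 35.6 and 89.1 CPM against 329 and 312 CPM (-2.49 ± 0.38, adjusted p = 0.0041). Fzd6 was higher instead, at 51.8, 41.7 and 73.8 CPM against 11.7 and 12.9 CPM (2.18 ± 0.31, adjusted p = 0.00334).

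Promoter windows of the called Wnt targets were read for the TCF/LEF words CTTTGA and CTTTGT on both strands. The windows run from 250 bases before to 50 after the transcript start (RefSeq, GRCm38.p6), and 13 of the 19 genes called higher had one. A word was present in 3 of the 13, against 31.2% of all 32851 windows. Sp5 is shown because its window held 5 matches, in capitals, and Nkd1 because it had one of the widest gaps between groups and held none. Sp5 lies at chr2:70474673-70474972 on the plus strand and Nkd1 at chr8:88527383-88527682 on the plus strand.
Sp5: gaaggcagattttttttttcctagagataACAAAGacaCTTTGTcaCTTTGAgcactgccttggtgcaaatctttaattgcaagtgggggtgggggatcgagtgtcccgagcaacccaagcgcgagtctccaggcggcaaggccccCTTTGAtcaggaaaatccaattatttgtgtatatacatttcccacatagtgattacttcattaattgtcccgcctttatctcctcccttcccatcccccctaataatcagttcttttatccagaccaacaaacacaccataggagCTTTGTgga
Nkd1: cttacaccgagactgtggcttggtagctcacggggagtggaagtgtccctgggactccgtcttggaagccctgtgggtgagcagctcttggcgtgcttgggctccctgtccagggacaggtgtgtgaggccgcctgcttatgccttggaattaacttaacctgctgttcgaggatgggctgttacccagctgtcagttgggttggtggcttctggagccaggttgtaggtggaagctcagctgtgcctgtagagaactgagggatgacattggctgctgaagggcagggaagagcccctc
A match is a description of letters, and its absence says only that these letters are not in that window.

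**Figure D2:**
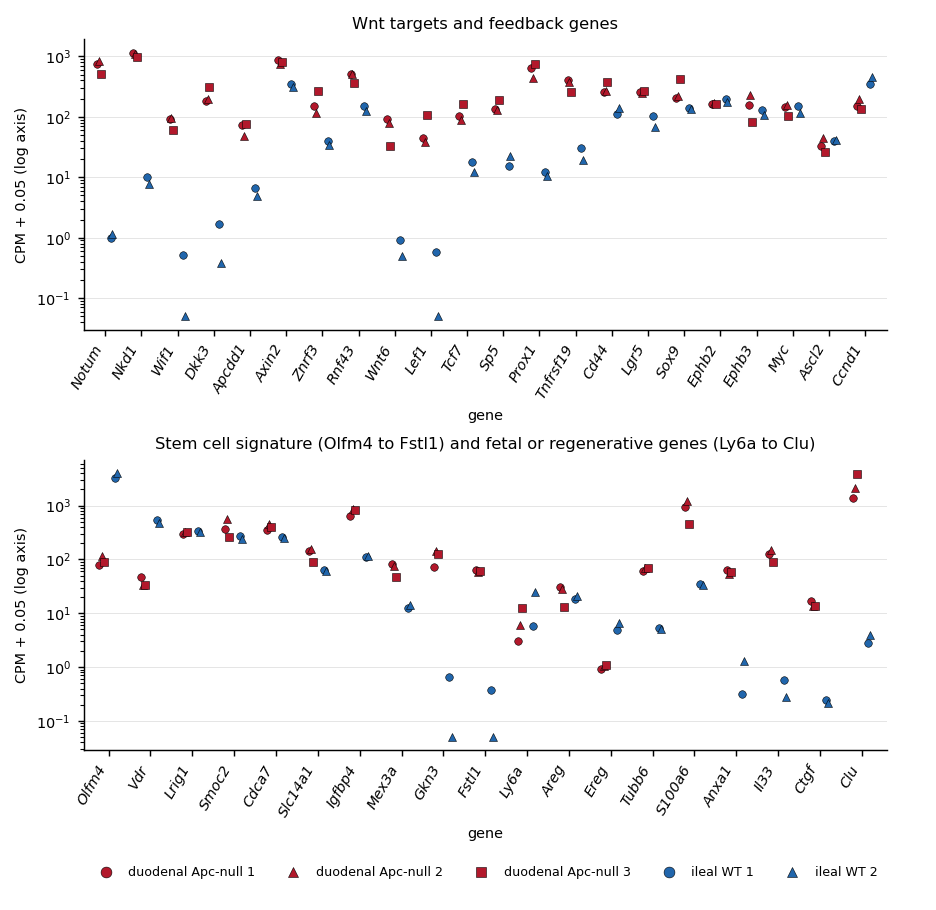
Each symbol is 1 library (duodenal Apc-null replicates 1 to 3 in red, ileal WT replicates 1 and 2 in blue), and the vertical axes give CPM plus 0.05 on a log scale. Notum, Nkd1, Prox1 and Clu lie far higher in every duodenal library, Myc and Ascl2 overlap, and Olfm4 lies far lower.

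Stem cell genes did not move as 1 group. Of 34 tested signature genes, 17 were higher and 4 lower (median log2 fold change 0.66). The counts of higher genes were 9, 7 and 11 without WT replicate 1, WT replicate 2 and duodenal replicate 1, and 2 were lower without WT replicate 2. Lgr5, the R-spondin receptor that defines these cells, was at 255, 249 and 271 CPM against 104 and 67.7 CPM. All duodenal values exceeded the WT values (1.59 ± 0.25, adjusted p = 0.00446), a call lost without WT replicate 2 (0.0675). The 2 groups carry different reporter alleles at Lgr5. Mex3a, a marker of a slow-cycling stem cell subset, was at 83.8, 76.4 and 48.0 CPM against 12.6 and 14.0 CPM (2.38 ± 0.31, adjusted p = 0.00218). Igfbp4, an IGF-binding protein of the signature, was at 651, 873 and 830.0 CPM against 114 and 118 CPM (2.76 ± 0.24, adjusted p = 0.000591). These 3 genes were high in every duodenal library.

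Olfm4, a secreted glycoprotein abundant in small intestinal stem cells and a Notch target, went the other way. It was at 78.6, 114 and 90.2 CPM in the duodenal libraries and at 3206 and 3976 CPM in WT (-5.25 ± 0.27, adjusted p = 0.000173). The vitamin D receptor gene Vdr was at 46.8, 32.9 and 33.9 CPM against 552 and 472 CPM (-3.76 ± 0.24, adjusted p = 0.000264). Ascl2, a master regulator of stem cell identity, was at 33.2, 44.3 and 26.4 CPM against 40.2 and 41.5 CPM, with overlapping groups (adjusted p = 0.536). The pan-stem regulator Lrig1, which restrains ErbB receptors, was at 294, 323 and 323 CPM against 335 and 320 CPM (adjusted p = 0.825). The 7 stem markers used to check the label summed to 1322, 1666 and 1187 CPM in duodenal and to 3968 and 4651 CPM in WT libraries. Without Olfm4 the sums were 1243, 1552 and 1097 CPM against 762 and 675 CPM, so the order of the groups turned with that gene. Lgr5, Smoc2 and Cdca7 were well above 0 in every library. Smoc2 and Cdca7 were not called with all 5 libraries and were called higher without duodenal replicate 3 (0.0217 and 0.0245). The epithelial markers Epcam, Krt8, Krt18, Vil1 and Cdh1 summed to 5265, 6095 and 6444 CPM in duodenal and to 9758 and 10127 CPM in WT libraries. Most of that gap was Krt8, at 1503, 1696 and 1304 CPM against 4637 and 4621 CPM. Krt8 (-1.62) and Vil1 (-1.41) were called lower, and Epcam, Krt18 and Cdh1 were not called. Krt18 was higher in every duodenal library, at 1397, 1701 and 1522.5 CPM against 825 and 1151 CPM.

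Fetal and regenerative epithelium genes, which the adult gut re-expresses after injury, were higher in 22 of 30 tested cases and lower in 2 (none without WT replicate 2 or duodenal replicate 1, 1 without WT replicate 1 or duodenal replicate 2), with a median log2 fold change of 2.96 (2.55 with the 6 genes absent from a group set at their bound). Clu, the chaperone clusterin of revival stem cells, was at 1406, 2134 and 3849 CPM against 2.71 and 3.91 CPM (9.53 ± 0.66, adjusted p = 0.000329). Il33, an alarmin cytokine, was at 125, 152 and 88.7 CPM against 0.529 and 0.223 CPM (8.36 ± 0.49, adjusted p = 0.000211). Anxa1, an annexin of regenerating epithelium, was at 64.8, 53.0 and 59.7 CPM against 0.264 and 1.23 CPM (6.26 ± 0.56, adjusted p = 0.000631). The lowest duodenal library was far above the highest WT library in all 3 genes. The YAP target Ctgf was at 17.0, 13.8 and 13.8 CPM against 0.198 and 0.167 CPM (6.31 ± 0.50, adjusted p = 0.000443). S100a6, a calcium-binding protein, was at 959, 1211 and 454 CPM against 35.2 and 33.3 CPM (4.68 ± 0.49, adjusted p = 0.000959).

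Not all of the fetal list followed. Ly6a, which encodes the regenerative marker Sca-1, was at 3.04, 5.90 and 12.5 CPM against 5.75 and 24.7 CPM, overlapping between groups (adjusted p = 0.301, and uncertain for its shared words). The ErbB ligand gene Areg overlapped as well, at 31.3, 27.9 and 12.98 CPM against 18.3 and 20.9 CPM (adjusted p = 0.608, and 0.046 toward higher without duodenal replicate 3). Ereg, another ligand of that family, was lower, at 0.869, 0.995 and 1.03 CPM against 4.76 and 6.47 CPM (-2.53 ± 0.50, adjusted p = 0.0107), a call lost without WT replicate 2 (0.0561) or duodenal replicate 1 (0.0532).

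Goblet cell genes were lower in 21 of 24 tested cases and higher in none, with a median log2 fold change of -2.59. Muc2, the main gel-forming mucin, was at 116, 153 and 510.2 CPM against 2201 and 2758 CPM (-3.25 ± 0.62, adjusted p = 0.0095). Tff3, a trefoil peptide that protects the mucosa, was at 41.5, 38.4 and 24.4 CPM against 1309 and 1304 CPM (-5.23 ± 0.30, adjusted p = 0.000192). Zg16, a lectin that keeps bacteria off the mucosa, was at 40.5, 31.7 and 29.6 CPM against 1218 and 1104 CPM (-5.10 ± 0.24, adjusted p = 0.000157). Every goblet gene named here was lower in all duodenal libraries. The mucus protein gene Fcgbp was at 249, 167 and 301 CPM against 7774 and 9739 CPM (-5.20 ± 0.33, adjusted p = 0.000255). Clca3, the file symbol of the gene now called Clca1, a mucus-processing protease, was at 48.5, 7.41 and 14.1 CPM against 2442 and 2978 CPM (-6.86 ± 0.82, adjusted p = 0.00159). The goblet cell factor gene Spdef was called lower too, at 18.9, 49.0 and 13.1 CPM against 106 and 135 CPM (-2.15 ± 0.52, adjusted p = 0.0222), but not without WT replicate 1 (0.0535), WT replicate 2 (0.0942) or duodenal replicate 1 (0.069). The 6 goblet markers summed to 347, 452 and 711 CPM in duodenal libraries and to 8381 and 9637 CPM in WT libraries.

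Enteroendocrine genes were lower in 29 of 33 cases and higher in none (median -3.49). Chga, a granule protein of hormone cells, was at 7.71, 8.17 and 9.41 CPM against 148 and 212 CPM (-4.42 ± 0.24, adjusted p = 0.000192). Tph1, which makes serotonin, was at 0.796, 1.10 and 0.414 CPM against 21.3 and 20.6 CPM (-4.73 ± 0.48, adjusted p = 0.000849). Neurod1, a factor of maturing hormone cells, was at 1.09, 0.583 and 0.724 CPM against 13.1 and 14.7 CPM (-4.11 ± 0.46, adjusted p = 0.00124). The lower levels covered hormones of both gut regions. Gcg, the proglucagon gene of distal L cells, was at 0.145, 0 and 0.362 CPM against 109 and 139 CPM (-9.65 ± 0.68, adjusted p = 0.000334). Pyy, a second L cell hormone, was at 0.0362, 0.0686 and 0 CPM against 15.9 and 28.8 CPM, a ratio of 0.00172 (95% counting interval 0.000354 to 0.00505). Cck, a hormone of the proximal gut, was at 1.23, 0.549 and 0.776 CPM against 12.2 and 27.7 CPM (-4.54 ± 0.55, adjusted p = 0.0017). Sct, secretin, was at 2.24, 3.19 and 1.55 CPM against 30.8 and 38.4 CPM (-3.88 ± 0.38, adjusted p = 0.000801). The 5 enteroendocrine markers summed to 27.5, 25.8 and 37.5 CPM against 492 and 676 CPM. The part of such cells in the WT sort, as opposed to transcripts within stem cells, was not tested for goblet or enteroendocrine genes.

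Atoh1, the transcription factor that commits crypt cells to a secretory fate, was lower, and was at 5.39, 5.73 and 5.02 CPM in the duodenal libraries and at 110 and 105 CPM in WT (-4.31 ± 0.21, adjusted p = 0.000157). Dll1, a Notch ligand of secretory precursors, was at 11.9, 15.2 and 12.7 CPM against 120 and 121 CPM (-3.18 ± 0.21, adjusted p = 0.000264). Replicates of both genes lay close together and the groups were far apart. Notch1, the receptor, was at 92.5, 81.7 and 115 CPM against 113 and 107 CPM, with overlap (adjusted p = 0.534). Hes1, the Notch-induced repressor of Atoh1, was at 239, 249 and 118 CPM against 121 and 104 CPM (0.84 ± 0.34, adjusted p = 0.106), and was called higher without duodenal replicate 3 (1.09, adjusted p = 0.00107). Of 25 tested genes of this list 6 were lower and 4 higher, the latter near the 16.2% of all tested genes. There were 3 lower without duodenal replicate 1 and 8 higher without duodenal replicate 3.

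**Figure D3:**
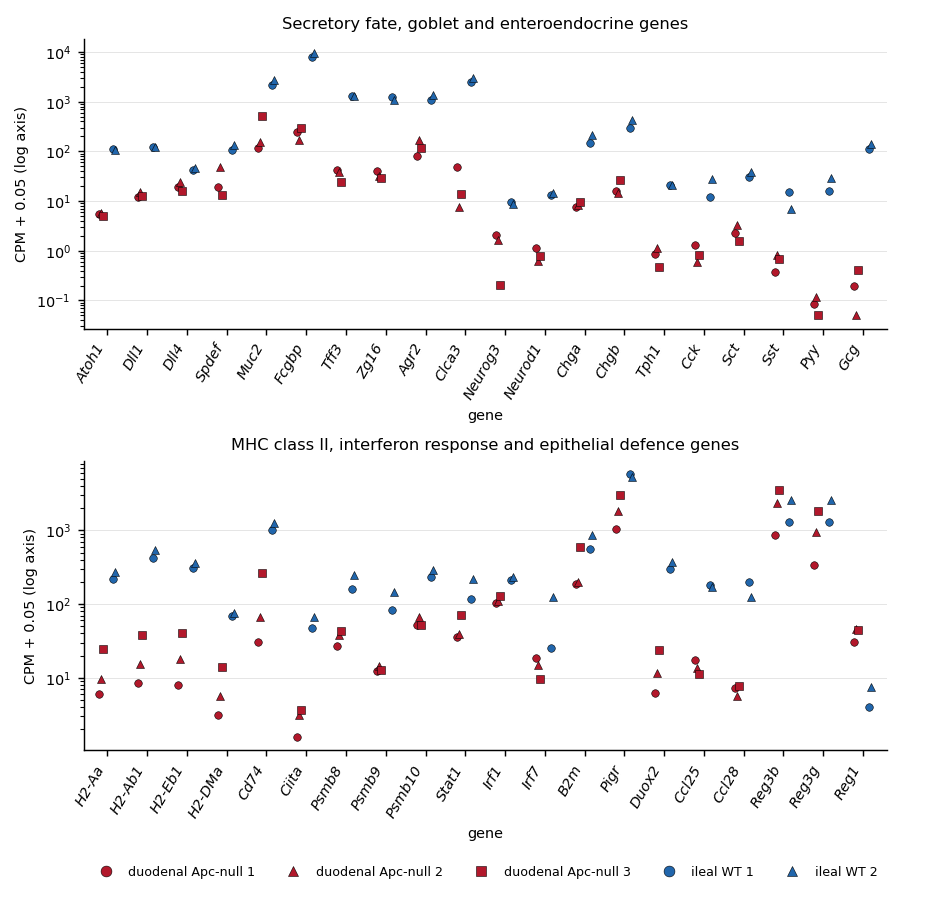
CPM plus 0.05 on log axes for each of the 3 duodenal (red) and 2 ileal WT (blue) libraries. Atoh1, Tff3, Chga and Gcg are lower in every duodenal library, H2-Aa and Ciita likewise, and Reg3b and Reg3g overlap between the groups.

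Paneth, enterocyte and tuft genes gave mixed results. Lyz1, the Paneth cell lysozyme, was at 4323, 7171 and 4337 CPM against 10234 and 6749 CPM, with overlap (adjusted p = 0.148, uncertain for its shared words). The lectin gene Itln1 was lower, at 987, 1791 and 963 CPM against 5081 and 3780 CPM (-1.83 ± 0.33, adjusted p = 0.00799), though not without WT replicate 1 (0.0568). Of 21 tested Paneth genes 9 were lower, 3 were higher and 12 are uncertain for shared words, and without WT replicate 2 there were 4 lower and 5 higher. The Paneth markers still summed to between 7054 and 11872 CPM in duodenal libraries, against 18307 and 12675 CPM in WT, with Lyz1 the largest part. Of these 6 markers 3 were lower, 2 were higher and 1 was not called. Defa24 was higher, at 57.3, 112 and 20.4 CPM against 0.463 and 0.726 CPM (adjusted p = 0.00258). Mmp7 was higher too, at 1167, 2180 and 2108.5 CPM against 815 and 685 CPM (1.28 ± 0.32, adjusted p = 0.0258). Both calls were lost in the fit of all 7 ISC libraries (0.0533 and 0.491). Enterocyte genes split into 7 higher and 13 lower of 39, with 2 higher and 8 lower without WT replicate 1, 3 higher without WT replicate 2 and 12 higher without duodenal replicate 3. With all 5 libraries the share of enterocyte genes called higher was near the 16.2% of all tested genes. Apoa4, a chylomicron protein of the proximal gut, was at 721, 272 and 151 CPM against 1.19 and 0.837 CPM (8.56 ± 0.92, adjusted p = 0.00113), and is uncertain. Mep1a, a brush border protease, was at 2.68, 2.85 and 1.60 CPM against 133 and 46.6 CPM (-5.23 ± 0.51, adjusted p = 0.000773). Sucrase-isomaltase, Sis, overlapped at 193, 88.2 and 147 CPM against 160 and 199 CPM (adjusted p = 0.479). Tuft cell markers varied within WT, where Dclk1 was at 12.6 and 86.5 CPM, against 27.004, 6.24 and 12.4 CPM in duodenal libraries (adjusted p = 0.161, and 0.0475 without WT replicate 1).

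Genes that differ along the gut separated the groups in the direction of their labels for many members, not for all. Of 29 tested ileum-enriched genes 12 were lower and 6 higher, with 3 higher without WT replicate 2 or either of duodenal replicates 1 and 2. Fabp6, the ileal bile acid-binding protein, was at 0.253, 0.206 and 0.155 CPM against 382 and 171 CPM (-10.33 ± 0.49, adjusted p = 0.000157). Amn, the cobalamin receptor subunit amnionless, was at 2.46, 1.96 and 1.24 CPM against 57.9 and 52.4 CPM (-4.85 ± 0.35, adjusted p = 0.000337). Guca2a, guanylin, was at 9.41, 15.4 and 12.1 CPM against 564 and 682 CPM (-5.66 ± 0.29, adjusted p = 0.000171). These were near absent or low in each duodenal library. Cubn, the cobalamin receptor cubilin, went against its list at 39.9, 22.2 and 11.0 CPM against 7.40 and 2.23 CPM (2.35 ± 0.71, adjusted p = 0.047), a call lost without WT replicate 2 (0.202), duodenal replicate 1 (0.131) or duodenal replicate 2 (0.0865).

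Of 30 tested duodenum-enriched genes 13 were higher and 6 lower, and 8 were higher without WT replicate 1 or without WT replicate 2. Onecut2, a proximal transcription factor, was at 188, 127 and 248 CPM against 0.793 and 1.95 CPM (7.07 ± 0.54, adjusted p = 0.000417). Gata4, which sets the jejunal and duodenal programme, was at 166, 144 and 205 CPM against 18.0 and 52.7 CPM (2.28 ± 0.46, adjusted p = 0.0121). S100g, the calcium-binding protein calbindin D9k, was at 331, 237 and 198 CPM against 3.96 and 0.67 CPM (6.81 ± 0.76, adjusted p = 0.00125). All 3 were higher in every duodenal library. Pdx1, a factor of pancreas and duodenum, was at 4.02, 3.91 and 7.14 CPM against 0 and 0.893 CPM and missed the threshold (adjusted p = 0.0619), which it passed without WT replicate 2 (0.0111). Slc40a1, the iron exporter ferroportin, overlapped at 44.0, 23.4 and 24.7 CPM against 38.9 and 28.6 CPM (adjusted p = 0.794). Osr2, a zinc finger factor of the list, was lower, at 5.61, 5.08 and 7.71 CPM against 133 and 101 CPM (-4.25 ± 0.27, adjusted p = 0.000264).

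Patterning genes of the Hox clusters, which mark position along the body axis, split by cluster, and Hoxb5 to Hoxb9 were close to absent in the duodenal libraries. Hoxb9 was at 0.0724, 0.0686 and 0 CPM against 71.1 and 22.6 CPM (-9.66 ± 0.79, adjusted p = 0.000467). Hoxb6 was at 0.0724, 0.0686 and 0.155 CPM against 43.9 and 13.5 CPM (-8.17 ± 0.72, adjusted p = 0.000597). Hoxb8 had no count in any duodenal library and 37.4 and 13.1 CPM in WT, which is at least 615-fold lower against 3 counts over the duodenal group. In each of these genes WT replicate 1 was above WT replicate 2, and both were above every duodenal library. Some HoxA genes went the other way: Hoxa5, Hoxa7, Hoxa9 and Hoxa10, chosen after their values were seen, were called higher, while Hoxa2, Hoxa3 and Hoxa4 were not called. The caudal factor gene Cdx1 was at 93.6, 129 and 70.0 CPM against 542 and 536 CPM (-2.46 ± 0.28, adjusted p = 0.00134). Cdx2, the master regulator of intestinal identity, was at 82.4, 90.6 and 108 CPM against 359 and 290 CPM (-1.79 ± 0.21, adjusted p = 0.00155). In the list of Hox, Cdx and other region factors, 9 of 35 were higher and 14 lower.

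Promoters of the ileum-enriched genes called lower were read for the Cdx words TTTATG and TTTATA on both strands, the latter of which also spells the TATA box. Of 10 genes with a window 3 held a word, against 22.8% of all windows. Fabp6 is shown with its 2 matches in capitals, as the gene with the widest fall of the list, and Guca2a as another strongly lowered gene, with none. Fabp6 lies at chr11:43601513-43601812 on the minus strand and Guca2a at chr4:119637482-119637781 on the plus strand.
Fabp6: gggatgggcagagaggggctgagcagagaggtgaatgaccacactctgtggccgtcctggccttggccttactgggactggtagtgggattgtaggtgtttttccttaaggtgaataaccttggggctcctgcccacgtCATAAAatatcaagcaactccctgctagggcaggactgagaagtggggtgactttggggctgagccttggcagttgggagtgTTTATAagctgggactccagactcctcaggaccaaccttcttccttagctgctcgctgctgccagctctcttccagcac
Guca2a: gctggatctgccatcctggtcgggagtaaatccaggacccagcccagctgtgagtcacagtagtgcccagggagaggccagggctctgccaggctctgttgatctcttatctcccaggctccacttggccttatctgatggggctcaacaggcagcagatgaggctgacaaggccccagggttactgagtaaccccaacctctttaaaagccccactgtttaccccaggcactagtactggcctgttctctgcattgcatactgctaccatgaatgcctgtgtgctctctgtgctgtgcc
In Fabp6 the match nearer to the end of the run is of the TATA type.

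**Figure D4:**
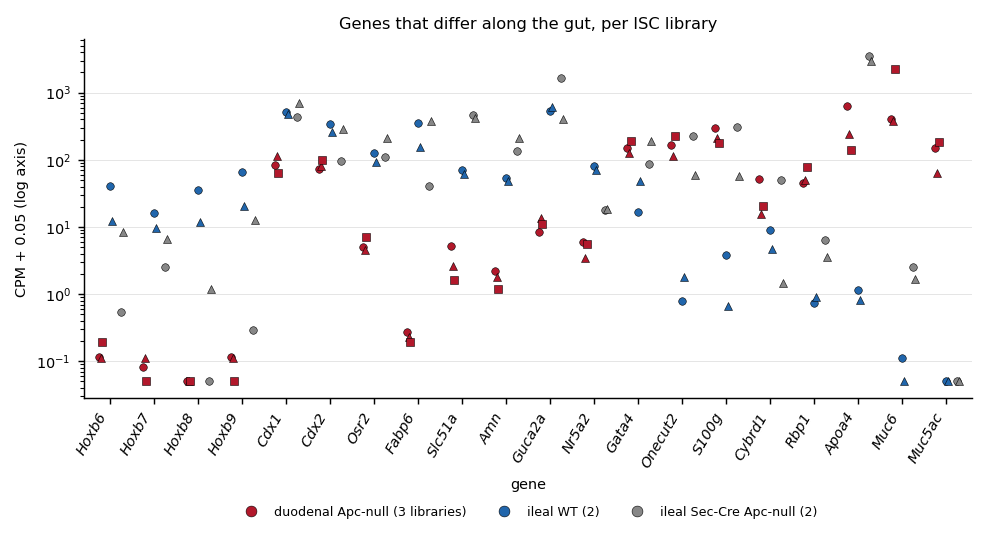
CPM plus 0.05 on a log axis, scaled over all 13 libraries, for genes that differ along the gut in duodenal Apc-null (red), ileal WT (blue) and ileal Sec-Cre Apc-null (grey) ISC libraries. Hoxb6 to Hoxb9 and Fabp6 are near the floor in red, and Onecut2, S100g and Apoa4 are high in red and grey and low in blue.

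The ileal Sec-Cre Apc-null ISCs of the series (Atoh1CreERT2;Apcfl/fl;Lgr5DTR-GFP;Rosa26tdTomato, 21 days, 2 libraries) share the ileal label with WT and the Apc label with the duodenal cells. Against the same WT controls, Sec-Cre ISCs had 9.62% of tested genes called higher and 6.96% lower in a fit of all 7 ISC libraries. On the scale of all 13 libraries, Fabp6 was at 41.1 and 381 CPM in them, against 358 and 155 CPM in WT and 0.142 to 0.226 CPM in duodenal libraries. Onecut2 was at 225 and 59.7 CPM, against 0.743 and 1.77 CPM in WT and 113 to 227 CPM in duodenal libraries. Fabp6 was thus far above the duodenal libraries in both Sec-Cre libraries, but below both WT libraries in Sec-Cre replicate 1. Onecut2 was far above WT in both, and in replicate 2 below the duodenal range. These genes do not stand for their lists. In Sec-Cre ISCs 12 of 30 duodenum-enriched and 12 of 30 ileum-enriched genes were higher than in WT, with 1 and 2 lower. Enterocyte genes were higher in 35 of 39 tested cases in the same comparison and lower in none. The part of that shift in the counts of the region lists was not tested. Hoxb9 was at 0.246 and 12.8 CPM, against 66.7 and 20.5 CPM in WT. Nkd1 was at 42.8 and 11.1 CPM, against 9.48 and 7.09 CPM in WT and 888 to 1031 CPM in duodenal libraries. It does not stand for the Wnt targets, of which 6 of 32 tested were higher and 6 lower in Sec-Cre than in WT ISCs. Axin2 was at 79.0 and 37.9 CPM in Sec-Cre libraries, against 330 and 285 CPM in WT. The Sec-Cre libraries had 57.0% and 35.8% unmapped reads. In their replicates 1 and 2 the 10 genes with most counts held 51.0% and 8.28% of gene counts. The role of these features in the values was not tested.

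The 12 largest rises by the rule for named genes had at most a trace of WT counts. Muc5ac, a mucin of the gastric surface, was at 170.2, 71.3 and 199.7 CPM and was not read in WT, which makes it at least 1540-fold higher. Muc6, the mucin of gastric and duodenal glands, was at 451, 433 and 2427 CPM against 0.0661 and 0 CPM, a ratio of 31260 (95% counting interval 5610 to 1235000). Both mucins were present in every duodenal library, and Muc6 was highest in replicate 3. Robo1, a Slit receptor, was at 186, 139 and 256 CPM and was at least 2047-fold higher. Bpifb5, of the family of lipid-binding BPI proteins, was at 260, 211 and 160.5 CPM and at least 2380-fold higher. Ifitm1, an interferon-induced membrane protein that is also a Wnt target, was at 529, 565 and 339 CPM against 0.0661 and 0 CPM. None of these 5 genes had more than a trace in WT. Cdh13, an atypical cadherin, was at 48.2, 50.3 and 113 CPM (at least 720-fold), and Stra6, the retinol uptake receptor, was at 61.8, 53.8 and 63.5 CPM (at least 652-fold). Cdh5, Cyp2e1, Fer1l4, Pcsk6 and Col4a2 completed the 12, each at least 379.8-fold higher.

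Among genes listed as stromal or endothelial, 9 of 13 tested were higher and none lower. The sum of epithelial markers given above was lower, mostly through Krt8. Vim, the intermediate filament vimentin, was at 662, 593 and 334 CPM against 10.7 and 15.1 CPM (5.36 ± 0.43, adjusted p = 0.000443). Cdh5, VE-cadherin of endothelial junctions, was at 77.7, 71.3 and 153 CPM and absent from WT counts, so at least 1041-fold higher. Col4a1, a basement membrane collagen, was at 74.9, 38.8 and 83.3 CPM against 0.0661 and 0 CPM. All 3 genes were high in every duodenal library. Pecam1, the endothelial adhesion molecule CD31, was at 0.398, 0.618 and 0.414 CPM against 0.463 and 0.781 CPM. The fibroblast collagen Col1a1 was at 0.109, 21.7 and 0.0517 CPM, and so was above a trace in duodenal replicate 2 alone. Pdgfra, a mesenchymal receptor, was at 10.6, 6.28 and 7.50 CPM against 0.0661 and 0 CPM, and was called higher (adjusted p = 0.00146). The 6 markers of this class summed to 88.8, 126 and 161 CPM against 0.529 and 0.781 CPM, with Cdh5 the largest part. Markers of this class thus differed among themselves, and the part of other cell types in the result was not tested. Without duodenal replicate 2, the library with collagen, 8 of 12 tested genes of the list were called higher.

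MHC class II genes, which present antigen and are made by gut epithelium under interferon, were lower in all 8 tested cases, with a median log2 fold change of -3.69. H2-Ab1 was at 8.36, 15.5 and 37.9 CPM against 419 and 536 CPM (-4.54 ± 0.60, adjusted p = 0.00231). H2-Aa was at 5.94, 9.67 and 24.7 CPM against 216 and 274 CPM (-4.20 ± 0.57, adjusted p = 0.00261). Ciita, the transactivator that switches the class on, was at 1.52, 3.12 and 3.62 CPM against 47.4 and 67.8 CPM (-4.39 ± 0.42, adjusted p = 0.000715). Duodenal replicate 3 was the highest of its group in these genes and still far below WT. Cd74, the invariant chain, was at 30.8, 66.3 and 264 CPM against 1024 and 1262 CPM (-3.25 ± 0.80, adjusted p = 0.0238), a call lost without WT replicate 1 (0.0591), WT replicate 2 (0.0858) or duodenal replicate 2 (0.0676). The immune markers Ptprc, Cd3e, Csf1r and Lyz2 were low, and summed to 3.58, 6.24 and 5.38 CPM against 12.4 and 28.4 CPM. Ptprc and Lyz2 were called lower, the latter uncertain for shared words. Csf1r was not called (adjusted p = 0.121), and Cd3e, which was not tested, was at 0.109, 0.172 and 0.517 CPM against 0.0661 and 0 CPM. Of 16 tested genes of the immune cell list, 1 was higher, 3 were lower and 12 were neither. The call of Ptprc was lost without WT replicate 2 (0.211), duodenal replicate 1 (0.101) or duodenal replicate 2 (0.0885), and that of Lyz2 without WT replicate 2 (0.233) or duodenal replicate 1 (0.126). The part of immune cells in this result was not tested.

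Interferon response and immunoproteasome genes were lower in 18 of 46 cases and higher in none, with 4 lower without WT replicate 2, 10 without duodenal replicate 1 and 9 without duodenal replicate 2, and 2 higher without WT replicate 2. Psmb9, a subunit of the immunoproteasome, was at 12.3, 14.4 and 12.9 CPM against 83.8 and 145 CPM (-3.11 ± 0.28, adjusted p = 0.000597). Psmb8, another such subunit, was at 27.2, 37.5 and 43.7 CPM against 158 and 247 CPM (-2.49 ± 0.29, adjusted p = 0.00136). Irf7, an antiviral factor, was at 18.4, 14.99 and 9.62 CPM against 25.5 and 126 CPM (adjusted p = 0.0265), so the gap to WT replicate 1 was small, and the call was lost without WT replicate 2 (0.268), duodenal replicate 1 (0.0559) or duodenal replicate 2 (0.0686). Epithelial defence genes split, with 7 higher and 7 lower of 23, and 2 higher and 4 lower without either WT library, while 4 were higher without duodenal replicate 1 or without duodenal replicate 2. Duox2, which makes hydrogen peroxide, was at 6.12, 11.7 and 23.7 CPM against 297 and 373 CPM (-4.60 ± 0.53, adjusted p = 0.00141). Ccl28, a chemokine for IgA plasma cells, was at 7.24, 5.66 and 7.71 CPM against 199 and 126 CPM (-4.57 ± 0.28, adjusted p = 0.000251). Reg3b, a bactericidal lectin, varied widely and overlapped, at 863, 2356 and 3518 CPM against 1284 and 2568 CPM (adjusted p = 0.796).

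Cell cycle genes were lower in 25 of 49 cases and higher in 1 (median -0.84). The count was 8 without WT replicate 1, 10 without WT replicate 2 and 15 without duodenal replicate 1, and 2 were higher without duodenal replicate 3. Of these 49 genes 10 are uncertain for shared words, and 5 were lower when a fold above 2 was tested. Bub1b, a spindle checkpoint kinase, was at 46.1, 46.7 and 53.6 CPM against 124 and 133 CPM (-1.39 ± 0.18, adjusted p = 0.00223). E2f2, an S phase transcription factor, was at 14.2, 14.99 and 16.4 CPM against 100.3 and 102 CPM (-2.74 ± 0.20, adjusted p = 0.000337). Both lay lower in each duodenal library. The proliferation marker Mki67 was at 264, 192 and 468 CPM against 657 and 689 CPM and missed the threshold (-1.13 ± 0.36, adjusted p = 0.0564). Mki67 was called lower without duodenal replicate 3 (-1.58, adjusted p = 0.00092), and with DESeq2 (0.02). Cdk1, the mitotic kinase, was at 83.2, 81.2 and 66.2 CPM against 90.1 and 112 CPM (adjusted p = 0.189). Ribosome biogenesis and Myc target genes had 2 higher and 5 lower of 42, with 2 lower without either WT library and 3 without duodenal replicate 1. None of them was higher without any 1 of the WT libraries or duodenal replicates 1 and 2, and 7 were without duodenal replicate 3. Their median was 0.07, and with all 5 libraries the share called lower was near the 12.5% of all tested genes.

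Mitochondrial respiration and protein folding genes were lower in part. Of 40 oxidative phosphorylation genes 16 were lower and none higher (median -0.53), with 2 lower without either WT library, 4 without duodenal replicate 1. Of these 40 genes 8 are uncertain for shared words, and 1 was lower when a fold above 2 was tested. Cox6a1, a cytochrome oxidase subunit, was at 159, 198 and 167 CPM against 432 and 434 CPM (-1.31 ± 0.20, adjusted p = 0.00386). Unfolded protein response genes were lower in 11 of 28 cases, which fell to 1 without WT replicate 1 or duodenal replicate 1 and to 2 without WT replicate 2. Edem1, which extracts misfolded proteins from the endoplasmic reticulum, was at 60.6, 70.2 and 55.6 CPM against 192 and 195 CPM (-1.64 ± 0.19, adjusted p = 0.00136). Cholesterol genes were lower in 9 and higher in 2 of 32, with 3 lower without either WT library and 5 without duodenal replicate 1, and 4 higher without duodenal replicate 3. Abca1, the cholesterol exporter, was at 109.9, 73.1 and 146 CPM against 10.3 and 5.41 CPM (3.81 ± 0.44, adjusted p = 0.00141). Fatty acid oxidation and PPAR target genes were higher in 6 and lower in 6 of 33 (median -0.17), and 9 were higher and 14 lower without duodenal replicate 3. With all 5 libraries the share called higher was near the 16.2% of all tested genes. Pdk4 of that list, which holds pyruvate back from oxidation, was at 135, 88.7 and 120 CPM against 0.991 and 4.69 CPM (5.31 ± 0.64, adjusted p = 0.00166). Abca1 and Pdk4 were higher in every duodenal library.

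Growth factor and BMP genes were higher in part. Of 27 genes of the EGF, ErbB and IGF axes 10 were higher and 4 lower, and 1, 0 and 1 were lower without WT replicate 1, WT replicate 2 and duodenal replicate 1. Btc, the ErbB ligand betacellulin, was at 54.5, 48.9 and 53.4 CPM against 10.6 and 10.9 CPM (2.28 ± 0.23, adjusted p = 0.000814). Igfbp3, an IGF-binding protein, was at 33.9, 45.6 and 19.0 CPM against 1.65 and 0.949 CPM (4.66 ± 0.54, adjusted p = 0.00141). Igf2bp1, an oncofetal RNA-binding protein, was at 14.0, 13.9 and 26.0 CPM and had no WT read, so it was at least 188-fold higher. Among 18 BMP targets and antagonists 8 were higher and 2 lower, with 4 higher without WT replicate 2 and 13 without duodenal replicate 3, and 1 lower without either WT library or duodenal replicate 1. Msx1, a BMP-induced homeobox gene, was at 35.3, 24.6 and 15.6 CPM and had no WT read either, so it was at least 289-fold higher. Id1 and Id3, inhibitors of differentiation induced by BMP, missed the threshold (adjusted p = 0.164 and 0.07), and both were called higher without duodenal replicate 3 (0.0171 and 0.000761).

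Stress genes that can mark tissue dissociation differed between groups in some members only. The heat shock gene Hspa1a was at 1.09, 1.17 and 0.931 CPM against 350.2 and 503 CPM (-8.63 ± 0.29, adjusted p = 9.88e-05), and is uncertain for its shared words. Dnajb1, its co-chaperone, was at 63.6, 81.9 and 75.7 CPM against 198 and 249 CPM (-1.60 ± 0.21, adjusted p = 0.00213). The immediate early genes Fos (729, 932 and 409 CPM against 860 and 643 CPM, adjusted p = 0.822) and Jun (1165, 1160 and 580 CPM against 1343 and 1130 CPM, adjusted p = 0.457) overlapped. In ileal Sec-Cre ISCs, scaled over 13 libraries, Hspa1a was at 7.88 and 8.36 CPM, so within the ISC libraries it was high in WT alone. The enzyme named for Sec-Cre ISCs is collagenase, as for WT. Sec-Cre ISCs also differ from WT in Cre, Apc status and unmapped reads, so the part of the enzyme cannot be read from them. Between the duodenal and WT groups the enzyme follows the group, and its part in these values was not tested.

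The largest falls also held genes that are not described above. Naaladl1, a peptidase of the ileal brush border, was at 4.05, 0.72 and 0.414 CPM against 479 and 364 CPM (-7.89 ± 0.89, adjusted p = 0.0013). Scin, an actin-severing protein, was at 8.29, 2.44 and 1.14 CPM against 217 and 226 CPM (-5.79 ± 0.74, adjusted p = 0.00201). Otc, the urea cycle enzyme of small intestine and liver, was at 6.52, 3.71 and 2.02 CPM against 185 and 162 CPM (-5.39 ± 0.46, adjusted p = 0.000537). These 3 genes were lowest in duodenal replicate 3. Slc5a8, a transporter of short-chain fatty acids, was at 0.579, 0.823 and 1.09 CPM against 43.0 and 36.6 CPM (-5.59 ± 0.37, adjusted p = 0.000264). Atp5l, a subunit of ATP synthase, was at 1.67, 1.92 and 1.34 CPM against 87.1 and 102 CPM (-5.83 ± 0.27, adjusted p = 0.000157). The part of the multimapping shares in that value was not tested.

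ISC-Cre Apc-null and WT organoids of the series, grown from crypts labelled as ileal and labelled 10 days, share no library with the 5 above. The ISC-Cre organoids have the Cre, Apc and reporter alleles of the duodenal ISCs, and the genotype of the WT organoids is given only as WT. In 1 fit of all 13 libraries, 10.7% of 15208 genes were higher and 8.97% lower in ISC-Cre than in WT organoids, and 19 of 33 tested Wnt targets were higher and 3 lower. The difference between the ISC and the organoid comparison was tested as an interaction, which 2.94% of all genes passed toward higher and 2.11% toward lower values in ISCs. Of 23 Wnt key genes 3 passed it. Axin2 was at 1.24 ± 0.33 in ISCs and 1.38 ± 0.35 in organoids (log2 fold changes), Sp5 at 2.97 ± 0.42 and 2.96 ± 0.44, and Notum at 9.38 ± 0.68 and 9.76 ± 0.71. For these the interaction was -0.13 ± 0.47, 0.01 ± 0.55 and -0.39 ± 0.80. Lgr5 rose in ISCs (1.55 ± 0.33) and fell in organoids (-1.24 ± 0.35), a difference of 2.79 ± 0.49 (adjusted p = 0.00651). Ccnd1 did the reverse, at -1.38 ± 0.25 and 1.39 ± 0.28 (difference -2.77 ± 0.37, adjusted p = 0.00144), and is uncertain for its shared words. Wnt6 also passed (adjusted p = 0.0125). Outside the Wnt list, with no test of the difference here, Hoxb9 was at 84.3 and 114 CPM in ISC-Cre and at 8.09 and 1.87 CPM in WT organoids, and Clu at 381 and 312 CPM against 12.4 and 55.5 CPM, on the scale of 13 libraries.

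**Figure D5:**
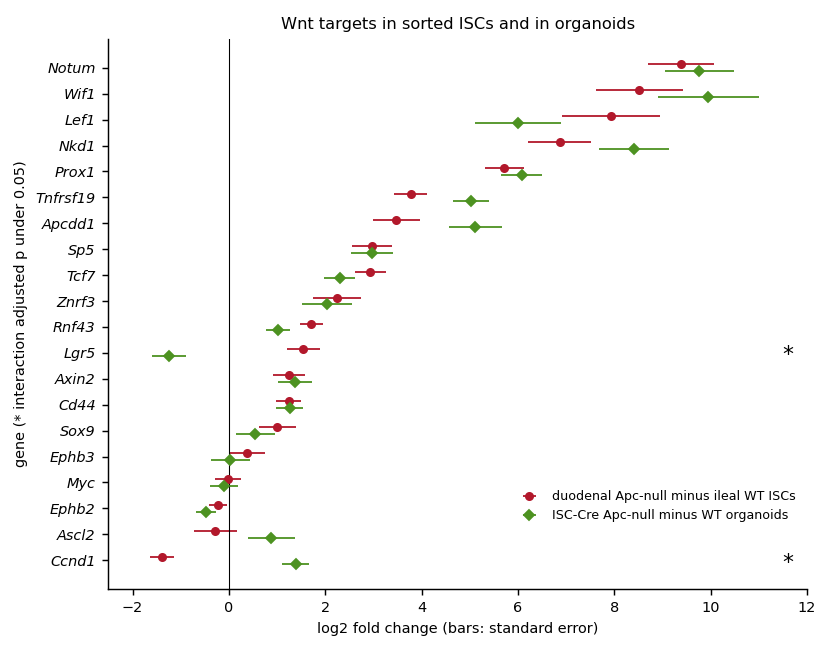
Log2 fold changes (horizontal axis, with standard errors) of 20 Wnt key genes in duodenal Apc-null against ileal WT ISCs (red) and in ISC-Cre Apc-null against WT organoids (green), from 1 fit of 13 libraries, without Wnt6, Wnt10a and Dkk2, which had no count in either library of a WT group. Asterisks mark Lgr5 and Ccnd1, whose difference passed the interaction test with opposite signs in the 2 materials.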

How the data were processed

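The authors deposited whole-number counts of reads per gene, 1 table per library with 24054 genes, and the column for both strands together was used. STAR and DESeq2 1.22.2 on mm10 are named per the submitters' processing notes, and the annotation is not given in the sources used here. Lines of a table that name no gene were kept out of the totals and the tests, and held 3.22% to 13.9% unmapped and 5.20% to 17.0% multimapping reads. Symbols matched GENCODE vM21 (GRCm38) for 98.3% of genes, which gave the words each gene shares with others.

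Counts of the 5 libraries were fitted alone with edgeR 4.0.16 (R 4.3.3): filterByExpr with a minimum count of 10, TMM, the quasi-likelihood test and Benjamini-Hochberg adjustment over 14289 genes (threshold 0.05, prior count 0.125, a biological coefficient of variation of 0.331 and 3 residual degrees of freedom). Bounds use 3 counts over a group without counts, and intervals are exact 95% ones for counting error only. Alternatives used limma 3.58.1, DESeq2 1.42.0, other scalings, filters and left-out libraries. On simulated data for this comparison (14289 genes), edgeR recovered 34 of 50 genes changed 4-fold and 5 of 50 changed 2-fold, with 6 unchanged genes called. The simulation gave all genes the same spread and changed far fewer genes than were called in the data, so its recovery need not hold here.

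Members and lists were chosen with earlier results of these data known. Named genes are key genes of the lists, the 12 largest rises and falls (mean log2 CPM of at least 4, no overlap, at most 20% shared words), and the 4 smallest p of each list with at least 3 calls. Some items withheld for evaluation are not reported here.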

Additional observations from a re-analysis of the deposited data

Results flagged for a closer look

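For 3 Wnt genes the change in duodenal Apc-null against ileal WT ISCs differed from the change in ISC-Cre Apc-null against WT organoids by the interaction test (edgeR, adjusted over 15208 genes, of which 2.94% were called toward higher and 2.11% toward lower values in ISCs). Lgr5, the R-spondin receptor of stem cells, gave a difference of 2.79 on the log2 scale (adjusted p = 0.00651), the ISC-Cre organoids being at 103 and 79.95 CPM and the WT organoids at 205 and 225 CPM. Ccnd1, cyclin D1, gave -2.77 (adjusted p = 0.00144), the ISC-Cre organoids being at 671 and 689.9 CPM and the WT organoids at 272 and 248 CPM, and is uncertain for its shared words. Wnt6, a Wnt ligand gene, gave -8.93 (adjusted p = 0.0125), with 343 and 200.4 CPM in ISC-Cre organoids. It had no count in WT organoids, so that fitted value depends on the prior count and is no measure of size. The materials compared also differ in gut region, days after induction, alleles at Lgr5 and cell makeup, and these cannot be told apart. Both ISC groups and the ISC-Cre organoids carry a reporter allele at Lgr5, while the genotype of the WT organoids is given only as WT.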

How the results depend on the processing

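With all 5 libraries, 2321 genes were called higher and 1785 lower. The counts were 1494 and 1289 in a fit of the 7 ISC libraries, 2385 and 2041 with all 13, 3011 and 2323 with DESeq2, 4125 and 3261 with library weights, and 1125 and 692 when a fold above 2 was tested. Leaving out 1 library gave 1003 to 3341 higher and 773 to 2989 lower. The counts of called members per gene list summed, each gene once, to 418, against 227 with the fold of 2 and 234 to 537 with 1 library left out. Of 216 called named genes, 144 were tested and called under all 18 alternatives. Hoxb8 and Hoxb9, 2 more, were called wherever tested but were not tested with own-strand genes only. Of the 18, the prior count of 2 changes fitted folds and not p-values, so no call could be lost under it. Igf1r (0.02, not called) was at -0.76 with library weights and -0.92 with the replicate block, and between -0.94 and 0.37 with 1 library left out. Ptgs1 (-0.28, not called) ranged from -1.16 to 2.73 when a WT library was left out. The cause was not tested. The groups share only replicate numbers 1 and 2, which the labels do not tie to animals or days, and the difference between them had a correlation of -0.037 across the groups. With the replicate block, 3131 genes were called higher and 2622 lower. In the interaction test 3 of 23 Wnt key genes passed, 4 with DESeq2 and 2 to 3 with 1 library left out. With 3 libraries against 2, changes of 2-fold were mostly not detected in simulated data, in which all genes had the same spread and few were changed. In the data, where 28.7% of genes were called, some smaller changes passed, such as that of Ctnnb1 (0.67). The simulation thus does not set the limit of detection here.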
